A study of Mus musculus with 50 samples.

Results

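Rfc2, Eif4h, Abhd11, Bud23, Dnajc30, Tbl2, Bcl7b and Baz1b are 8 broadly expressed protein-coding genes of the mouse region that corresponds to the segment deleted in Williams syndrome, a human developmental disorder. They were chosen by symbol for their basic cellular roles in DNA replication, translation, chromatin and mitochondria, and not by any measured value, and all 8 were among the 11708 genes of the count table. RNA was sequenced from 18 whole brains of FVB/ANTJ mouse embryos at E13.5, in 6 groups of 3. In the Gtf2i set, called the gtf2i cross here, the groups were wt, gtf2i (read as 1 mutant allele) and gtf2i/gtf2i. In the Gtf2ird1 set, called the ird1 cross, they were wt, ird1 and ird1/ird1, and each set had wt embryos of its own. No other allele or agent was named for any group. The labels do not say how either mutant allele was made, nor the sex of the embryos, nor which embryos shared a litter, so p-values measure the spread between these libraries only. The question put to the 8 genes was whether mutation of either transcription factor gene that lies beside them on the same chromosome was accompanied by a change in their transcripts.

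The products of these genes act in 4 places in the cell. Rfc2 is a subunit of replication factor C, the clamp loader that places the sliding clamp PCNA on DNA. Eif4h stimulates the RNA helicase eIF4A when ribosomes are recruited to mRNA, and Bud23 is a methyltransferase that, with its partner Trmt112, modifies the RNA of the small ribosomal subunit. Baz1b (also called WSTF) pairs with the ISWI ATPase Smarca5 to remodel nucleosomes, and Bcl7b is a subunit of the BAF (SWI/SNF) remodelling complexes. Abhd11 and Dnajc30 are mitochondrial: Abhd11 is a hydrolase that protects the lipoylated 2-oxoglutarate dehydrogenase complex, and Dnajc30 is a J-domain protein associated with ATP synthase. Tbl2 is a WD40-repeat protein of the endoplasmic reticulum that associates with the stress kinase PERK. Gtf2i and Gtf2ird1, the mutated genes, encode related DNA-binding factors.

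All 8 genes lie on chromosome 5 on the same side of both mutated genes, in the RefSeq annotation of GRCm38.p6, the build the authors' notes call mm10. Rfc2 (chr5:134582690-134598328) and Eif4h (chr5:134619872-134639409) are the nearest, with Rfc2 starting 265 kb from the end of Gtf2i. Then come Abhd11 (chr5:135009152-135012175), Bud23 (chr5:135052957-135064959) and Dnajc30 (chr5:135064206-135065365). Tbl2 (chr5:135149429-135163873), Bcl7b (chr5:135168372-135181852) and Baz1b (chr5:135187323-135246131) are the farthest, with Baz1b starting 870 kb from the end of Gtf2i. The spans of Bud23 and Dnajc30 overlap by 754 bases, which is 65% of the span of Dnajc30 and 6.28% of that of Bud23. The strand setting used in counting is not given in the sources used here, so reads from the shared stretch cannot be told apart between Bud23 and Dnajc30.

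Start-site sequences are shown because the mutated genes encode DNA-binding factors, so that a reader can see which of their recognition letters stand before these genes. The RefSeq windows of GRCm38.p6 run from 250 bases before to 50 bases after a start. The letters GGATTA, a core bound by Gtf2ird1, were searched on both strands (reverse TAATCC) and occur in 7.06% of 32851 mouse windows. The palindrome CACGTG, an E-box of a kind that the Gtf2i product TFII-I can bind, occurs in 7.15%, and the motifs share no letters in the windows below. Each window is given 5′ to 3′ on the strand of its gene, with the motif letters in capitals. Gtf2ird1 (chr5:134456667-134456966, minus strand) is the comparison, with GGATTA 4 times. Abhd11 (its first window, chr5:135008902-135009201, plus strand) holds GGATTA once, Eif4h (chr5:134639360-134639659, minus strand) and Bcl7b (chr5:135168122-135168421, plus strand) hold CACGTG once, and Baz1b (chr5:135187073-135187372, plus strand) holds neither.
Gtf2ird1: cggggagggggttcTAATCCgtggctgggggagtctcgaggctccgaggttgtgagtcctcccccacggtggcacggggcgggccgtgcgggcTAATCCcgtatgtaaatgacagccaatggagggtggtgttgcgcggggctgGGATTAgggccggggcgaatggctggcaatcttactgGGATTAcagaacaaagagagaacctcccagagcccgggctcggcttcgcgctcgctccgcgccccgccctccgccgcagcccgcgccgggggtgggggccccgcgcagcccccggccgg
Abhd11: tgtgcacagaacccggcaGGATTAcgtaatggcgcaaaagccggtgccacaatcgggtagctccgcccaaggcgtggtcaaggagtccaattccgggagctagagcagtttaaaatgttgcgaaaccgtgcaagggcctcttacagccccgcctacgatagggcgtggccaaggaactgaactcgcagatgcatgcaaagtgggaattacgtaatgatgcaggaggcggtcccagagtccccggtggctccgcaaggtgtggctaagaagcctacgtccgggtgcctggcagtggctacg
Eif4h: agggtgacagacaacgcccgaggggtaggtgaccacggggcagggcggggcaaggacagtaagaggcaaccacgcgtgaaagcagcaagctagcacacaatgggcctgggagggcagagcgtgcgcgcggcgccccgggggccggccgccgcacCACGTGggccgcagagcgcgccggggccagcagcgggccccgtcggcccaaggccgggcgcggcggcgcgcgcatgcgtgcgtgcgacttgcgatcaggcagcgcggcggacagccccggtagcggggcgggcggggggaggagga
Bcl7b: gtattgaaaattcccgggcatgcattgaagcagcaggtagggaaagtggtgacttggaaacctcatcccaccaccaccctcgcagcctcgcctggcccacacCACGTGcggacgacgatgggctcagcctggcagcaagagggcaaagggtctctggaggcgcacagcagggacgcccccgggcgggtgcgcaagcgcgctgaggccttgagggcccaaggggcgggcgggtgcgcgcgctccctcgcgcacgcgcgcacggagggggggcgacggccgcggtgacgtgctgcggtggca
Baz1b: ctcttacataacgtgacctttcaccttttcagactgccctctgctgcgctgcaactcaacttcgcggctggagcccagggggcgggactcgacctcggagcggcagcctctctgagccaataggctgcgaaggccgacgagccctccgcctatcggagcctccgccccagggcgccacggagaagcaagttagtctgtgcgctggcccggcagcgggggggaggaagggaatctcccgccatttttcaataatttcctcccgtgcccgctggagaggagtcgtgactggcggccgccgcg
The table of windows gave 8 windows for 6 of the genes, and none for Rfc2 and Dnajc30. Of the 8 windows, 1 held GGATTA (offset -232 from the start) and 2 held CACGTG (offset -96 in Eif4h and -148 in Bcl7b). The windows of Tbl2 and Bud23 and the other windows of Abhd11 held neither motif. G and C made up from 50% to 76% of the letters, highest in Eif4h, against a median of 52.7% over all windows. A match is a run of letters and says nothing of binding.

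Total counts per library ranged from 3239117 to 7371483, the lowest in wt replicate 2 of the ird1 cross. That library also stood at one end of a trend of level with transcript length described below. In the same trend gtf2i/gtf2i replicate 3 and ird1 replicate 2 each stood apart from the other libraries of their group. Gtf2i itself fell in the gtf2i cross, from 624 ± 30.7 CPM (SD, n = 3) in wt to 368 ± 6.23 with 1 mutant allele and 82.5 ± 0.797 in gtf2i/gtf2i, where CPM is the read count scaled to a common library total. Gtf2ird1 rose in its own cross, from 98.2 CPM in wt to 223 CPM in ird1/ird1 (log2 fold change 1.18, edgeR adjusted p 3.92e-05). Its transcript thus does not show a loss of the gene, and the labels ird1 and ird1/ird1 are used as given. Gtf2ird1 rose in the gtf2i cross too, from 92.4 CPM in wt to 136 in gtf2i (edgeR adjusted p 0.150) and 267 in gtf2i/gtf2i. The log2 fold change of gtf2i/gtf2i against wt was 1.52 (edgeR adjusted p 5.61e-07). All 8 neural markers (Sox2, Nes and Tubb3 among them) were in the table, with summed levels from 4998 to 5954 CPM. Their median log2 fold change was -0.13 in gtf2i/gtf2i against wt and 0.13 in ird1/ird1 against wt (0 called in each), and 1 was called higher in gtf2i/gtf2i against gtf2i. Summed red blood cell markers, 8 of 13 listed genes in the table, ran from 5790 to 9184 CPM in gtf2i/gtf2i and from 4091 to 5314 CPM in the wt of that cross. Of these 8 marker genes 2 were called higher in gtf2i/gtf2i against wt, and 5 against gtf2i, and their median log2 fold changes were 0.47 and 0.77. Mesenchyme markers (9 of 9 in the table) summed to 933 to 1117 CPM in wt, 823 to 1281 in gtf2i and 1035 to 1689 in gtf2i/gtf2i. Their median log2 fold change was 0.28 in gtf2i/gtf2i against wt (0 called) and 0.26 against gtf2i (1 called). In the ird1 cross they summed to 966 to 1578 CPM in wt, 797 to 1133 in ird1 and 1041 to 1644 in ird1/ird1, with a median of 0.17 in ird1/ird1 against wt and 0.43 against ird1, where all 9 were higher in value and 0 were called. Endothelium markers (7 of 7) summed to 283 to 402 CPM over the libraries with 0 called in the genotype comparisons, and 0 of 5 muscle markers were in the table. The part of these cells in the values below was not tested, and in whole brains fewer cells of a type and less RNA per cell cannot be told apart.

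**Figure D1:**
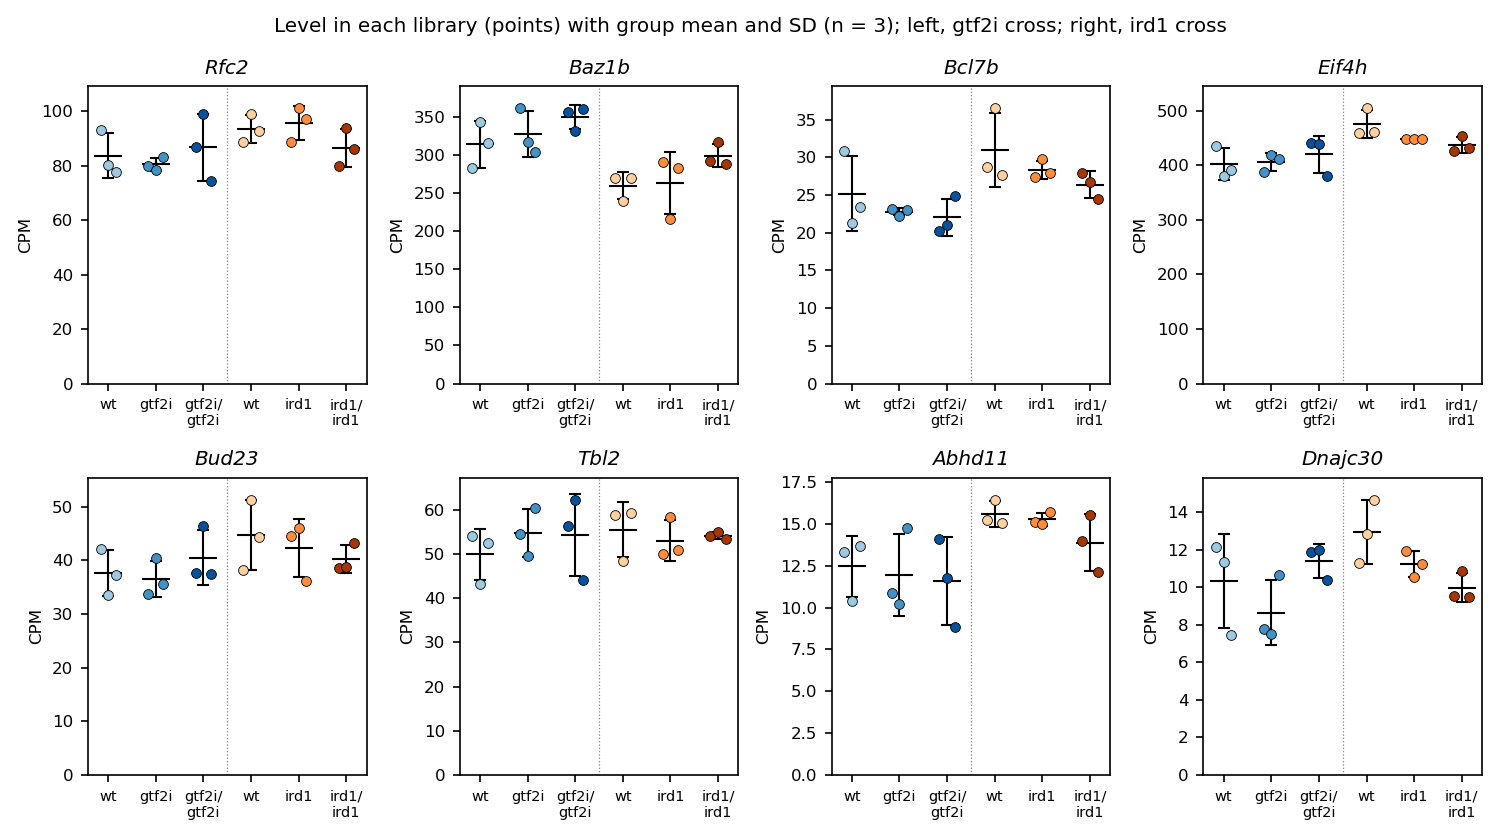
Level of each of the 8 genes in CPM (y axis, from 0) in the 18 libraries, with 1 point per library and the group mean and SD (n = 3) as bars, the gtf2i cross on the left of each panel and the ird1 cross on the right. The genotype groups of a cross overlap in most panels, while Baz1b sits higher and Eif4h lower in wt of the gtf2i cross than in wt of the ird1 cross.

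Levels spanned more than an order of magnitude once divided by transcript length. On the scale of CPM per kilobase over the 18 libraries, Eif4h stood at 158 ± 11.9 (SD, n = 18), above 98.0% of genes in the table, and Baz1b at 46.6 ± 6.20, above 88.4%. Bud23 (25.1 ± 3.03), Rfc2 (17.6 ± 1.67) and Bcl7b (14.8 ± 2.35) followed in the upper part of the table. Abhd11 (9.01 ± 1.49), Tbl2 (7.16 ± 0.708) and Dnajc30 (6.48 ± 1.13) lay below its middle, from the 41.8th to the 30.9th percentile. The order from Eif4h down to Rfc2 held between neighbours in 18 of 18 libraries. Rfc2 was above Bcl7b in 17, Bcl7b above Abhd11 in 18 and Abhd11 above Tbl2 in 16. Tbl2 was above Dnajc30 in 12 of 18, and the gap between their means, 0.727 of their pooled SD, was smaller than the spread.

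The partners of these proteins give a scale for the levels. Rfc2 at 17.6 CPM per kilobase lay among the other replication factor C subunits, Rfc1 at 9.80, Rfc5 at 11.3, Rfc3 at 19.2 and Rfc4 at 23.5. Eif4h at 158 was below the translation factor Eif4g2 at 236 and the poly(A)-binding protein gene Pabpc1 at 182. It stood near the scaffold subunit Eif4g1 at 138 and above the cofactor Eif4b at 112, the helicase Eif4a1 at 37.6 and the cap-binding protein Eif4e at 9.56. Baz1b at 46.6 stood above its paralog Baz1a (6.22) and its catalytic partner Smarca5 (10.8), and below the histone-binding subunit Rbbp4 (98.7). Bcl7b was the lowest of its family, below Bcl7c at 19.3 and Bcl7a at 45.7 CPM per kilobase. Dnajc30 at 6.48 lay among the mitochondrial J-proteins, below Dnajc11 (19.8) and Dnaja3 (18.9) and above Dnajc15 (3.77), Dnajc19 (3.68) and Dnajc28 (1.70), with the Hsp70 Hspa9 at 64.9. Abhd11 at 9.01 was below the 2-oxoglutarate dehydrogenase subunits Ogdh (46.6) and Dlst (49.9), near the lipoyl synthase Lias (9.95) and above the lipoyl transferase Lipt2 (4.25) and Dhtkd1 (1.95). How reads shared with pseudogenes or close copies were counted is not given in the sources used here, which limits levels compared between genes.

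The 8 genes were about as variable between libraries as genes at large. The coefficient of variation (CV, SD as a percent of the mean) over the 18 libraries had a median of 12.7% in the 8 genes, 11.0% in 15 commonly used reference genes (3.48% in Sdha to 18.1% in Pgk1) and 13.7% in all genes. Eif4h was the steadiest of the 8, with a CV of 7.52%, lower than in all but 8.91% of genes, followed by Rfc2 (9.50%) and Tbl2 (9.89%). Dnajc30 (17.5%), Abhd11 (16.5%) and Bcl7b (15.9%) varied most. These were also the genes with the fewest reads, 39 to 86 per library for Dnajc30, 50 to 117 for Abhd11 and 91 to 214 for Bcl7b. Counting alone gives an error of 12.4% at the mean count of Dnajc30 and 11.0% at that of Abhd11, against 1.95% for Eif4h. Baz1b combined many reads (729 to 2388, counting error 2.32%) with a CV of 13.3%.

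**Figure D2:**
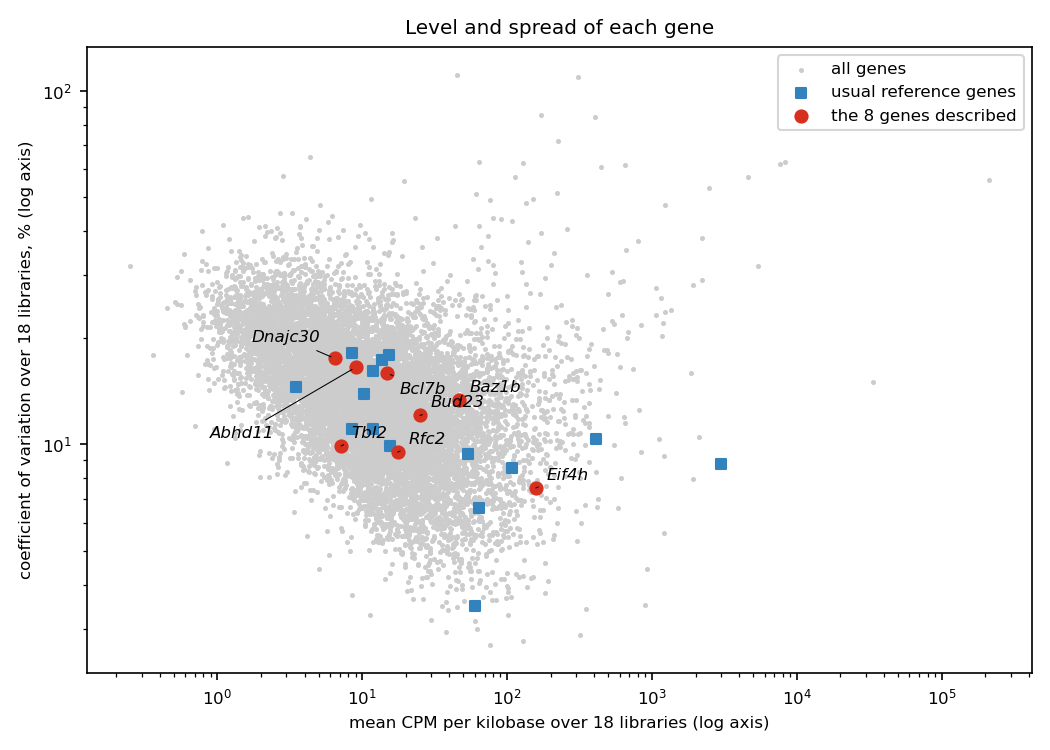
Coefficient of variation over 18 libraries in percent (y axis, log scale) against mean CPM per kilobase (x axis, log scale), with 1 grey point per gene of the table, blue squares for 15 reference genes and red circles for the 8 genes. Eif4h lies at high level and low spread, at 158 CPM per kilobase and 7.52%, and Dnajc30 at low level and higher spread, at 6.48 CPM per kilobase and 17.5%.

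None of the 8 genes changed past the threshold in any genotype comparison. A gene is called where the quasi-likelihood test of edgeR gave a p under 0.05 after Benjamini-Hochberg adjustment over all 11708 genes. In gtf2i/gtf2i against wt 0 of 8 were called, where 0.94% of all genes were, or 624 genes in place of 110 with the number that opens the sample titles as a block. With 1 mutant allele against wt it was 0 of 8, where 0.00854% of all genes were called, and between gtf2i/gtf2i and gtf2i it was 0 of 8, where 3.12% were. For the ird1 cross it was 0 of 8 in ird1/ird1 against wt (0.00854% of all genes), 0 of 8 in ird1 against wt (0%) and 0 of 8 in ird1/ird1 against ird1 (0%). At an unadjusted p under 0.05, 1 of these 48 values passed, that of Dnajc30 in ird1/ird1 against wt, where 16.1% of all genes passed (1886, and 877 without wt replicate 2). The unadjusted shares in the other comparisons, with no gene of the 8 past them, were 14.4% for gtf2i/gtf2i and 1.6% for gtf2i, each against wt, and 16.5% between both mutant groups. They were 3.02% in ird1 against wt and 4.66% in ird1/ird1 against ird1. DESeq2, run as an alternative, also called none of those it gave an adjusted p. These were all 8 in 5 of the comparisons, and in ird1/ird1 against wt only Eif4h and Baz1b, since its filter on low counts left the other 6 without one, Dnajc30 (unadjusted p 0.0704) among them.

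The intervals bound what could have been missed. The 48 log2 fold changes lay between -0.37 and 0.38, and the 95% interval of each lay within 2-fold in either direction. Of the 48 intervals, 4 reached as far as 1.5-fold, so a change of that size was not excluded for those. As a list, the median log2 fold change was 0.07 in gtf2i/gtf2i against wt (0.00 over all genes), with 6 values higher and 2 lower. Without gtf2i/gtf2i replicate 2 it was -0.01 with 3 higher and 5 lower, without wt replicate 3 it was 0.02 with 4 and 4, and without gtf2i/gtf2i replicate 3 it was 0.14 with 7 and 1. Leaving out wt replicate 1 or 2 kept the tally at 6 and 2, with medians of 0.12 and 0.01. In ird1/ird1 against wt the median was -0.14 (-0.00 over all genes), with 1 value higher and 7 lower, and it was -0.09 with the same tally without wt replicate 2. With a single mutant allele the medians were -0.05 in gtf2i, and 0.02 to -0.10 leaving out wt replicate 1 or wt replicate 2. In ird1 the median was -0.07, and -0.01 to -0.11 leaving out wt replicate 2 or ird1 replicate 2.

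**Figure D3:**
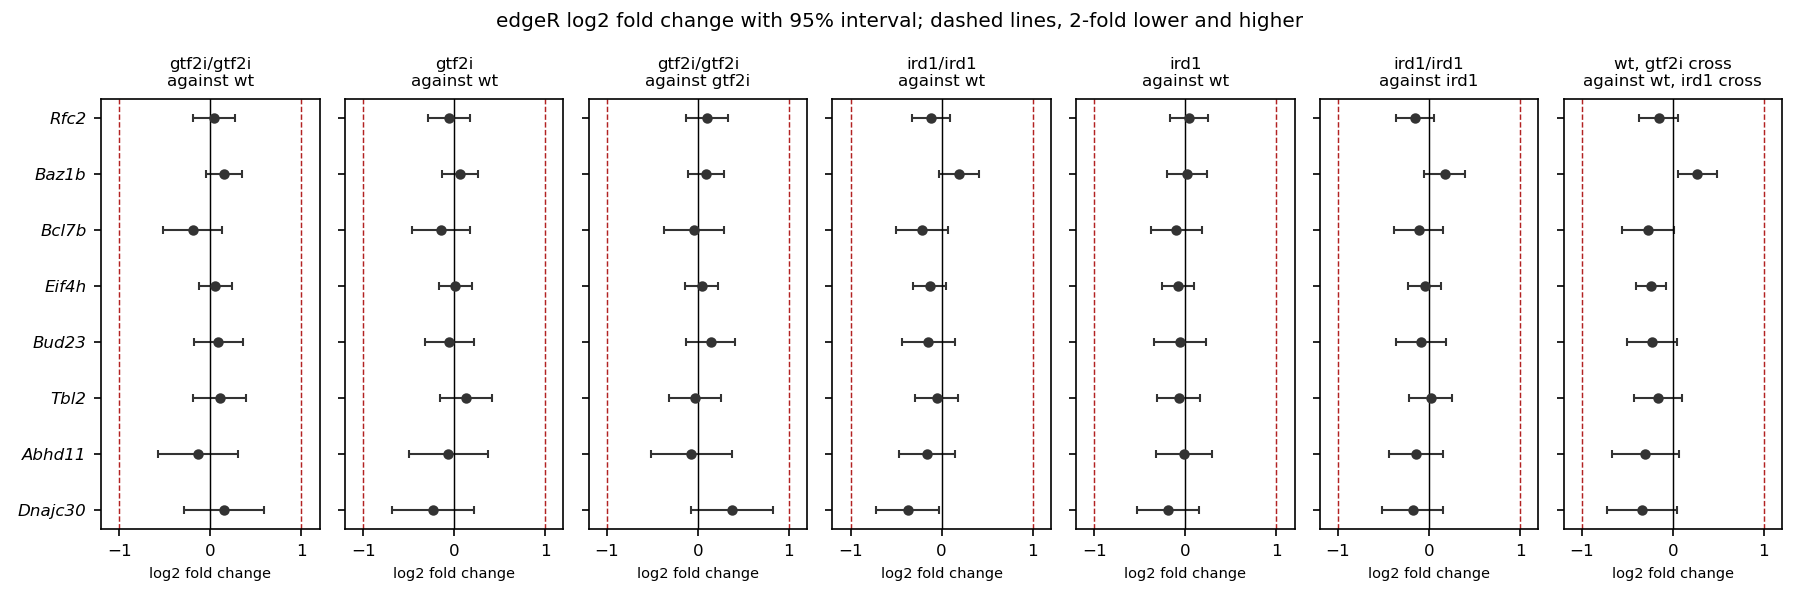
edgeR log2 fold change (x axis) of each of the 8 genes (y axis) in 6 genotype comparisons and, at the right, between the wt groups of both crosses, with points for the estimate and bars for its 95% interval. Every interval of the genotype comparisons lies inside the dashed lines at 2-fold, and the bars are widest for Dnajc30 and Abhd11.

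Replication and translation came first. Rfc2 (ENSMUSG00000023104), the clamp loader subunit, measured 93.1, 80.5 and 77.6 CPM in wt of the gtf2i cross, 79.9, 78.5 and 83.1 in gtf2i, and 86.8, 99.1 and 74.5 in gtf2i/gtf2i. The gtf2i/gtf2i libraries thus held both the highest and the lowest value of the cross, and the change against wt was 0.04 on the log2 scale (SE 0.108, adjusted p 0.923 by edgeR). Leaving out 1 library took it from -0.06 (without gtf2i/gtf2i replicate 2) to 0.15 (without gtf2i/gtf2i replicate 3). Across the ird1 set Rfc2 was at 88.8, 99.1 and 92.7 CPM in wt, 88.8, 101 and 97.2 in ird1, and 80.0, 93.9 and 86.1 in ird1/ird1. The groups overlapped, and for ird1/ird1 against wt the log2 value was -0.12 with an SE of 0.0990 (edgeR adjusted p 0.513). It was -0.05 without ird1/ird1 replicate 1, -0.07 without wt replicate 2 and -0.18 with the trend of level on transcript length removed.

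Eif4h (ENSMUSG00000040731), the helicase cofactor, had the tightest estimates. In the gtf2i cross it measured 436, 379.5 and 391 CPM in wt, 388, 419.6 and 412 in gtf2i, and 441, 439 and 380.1 in gtf2i/gtf2i, with all groups overlapping. The log2 fold change in gtf2i/gtf2i against wt was 0.05 (95% interval -0.13 to 0.24, edgeR adjusted p 0.851), and 0.01 (without wt replicate 2) to 0.13 (without gtf2i/gtf2i replicate 3) leaving out 1 library. Among the embryos of the ird1 cross its values were 459, 505 and 461 CPM in wt, 448, 447 and 448 in ird1, and 426, 454 and 431 in ird1/ird1. All libraries of ird1 and of ird1/ird1 lay below all 3 of wt, with log2 fold changes of -0.08 and -0.13, and neither was called (edgeR adjusted p 0.997 and 0.393). Without wt replicate 2, its highest library, the value in ird1 was -0.04 and that in ird1/ird1 was -0.08, the latter also with the length trend removed. Such a lack of overlap was seen in 3 of the 8 genes in ird1/ird1 against wt (Eif4h and Dnajc30 lower, Baz1b higher), beside 26.9% of all genes, and in 1, Eif4h, in ird1 against wt, beside 7.04%. It was seen in 0 of 8 in gtf2i/gtf2i against wt (16.8% of all genes), in gtf2i against wt (7.27%), in gtf2i/gtf2i against gtf2i (19.2%) and in ird1/ird1 against ird1 (17%).

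Bud23 (ENSMUSG00000005378), the ribosomal RNA methyltransferase, measured 42.2, 33.6 and 37.3 CPM in wt of the gtf2i cross and 37.6, 46.4 and 37.5 in gtf2i/gtf2i. Its mean was 36.5 ± 3.44 CPM in gtf2i, and for gtf2i/gtf2i against wt the log2 value was 0.09 with an SE of 0.125 (edgeR adjusted p 0.831). Bud23 was higher in 3 of 3 pairs by title number, the closest at 37.5 against 37.3 CPM. Of the other genes described only Baz1b was also higher in every pair, and each of the rest had pairs in both directions. The share of all genes higher in every pair is not given here. The blocked log2 value of Bud23 was 0.09 (edgeR adjusted p 0.725), and without gtf2i/gtf2i replicate 2 the unblocked value was -0.01. The ird1 cross gave 38.2, 51.3 and 44.4 CPM in wt, 44.6, 46.1 and 36.2 in ird1 and 38.6, 38.7 and 43.3 in ird1/ird1. Each group thus reached into the range of the others, and the log2 fold change of ird1/ird1 against wt was -0.15 (SE 0.136, edgeR adjusted p 0.546). It was -0.03 with the length trend removed, -0.04 without wt replicate 2 and -0.24 without wt replicate 1.

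Both chromatin genes were measured next. Baz1b (ENSMUSG00000002748), the ISWI partner, stood at 283, 344 and 316 CPM in wt of the gtf2i cross, 362, 318 and 304 in gtf2i, and 357, 331 and 361 in gtf2i/gtf2i. The gtf2i/gtf2i libraries lay in the upper part of the wt range and above it, for a log2 fold change of 0.15 (SE 0.0928, adjusted p 0.517 by edgeR). Paired by the number in the sample titles, gtf2i/gtf2i was higher in 3 of 3 pairs (331 against 283, 357 against 344 and 361 against 316 CPM). With that number as a block the value was 0.15 (SE 0.0708, p 0.0492, edgeR adjusted p 0.262). That fit called more of all genes than the unblocked one, and its share of genes at an unadjusted p under 0.05 is not given here. Without wt replicate 1 the unblocked value was 0.08. Over the ird1 cross Baz1b was at 270.3, 239.9 and 270.0 CPM in wt, 291, 217 and 283 in ird1, and 292, 317 and 289 in ird1/ird1. All 3 ird1/ird1 libraries were above all 3 of wt, while ird1 spanned both. The log2 fold change of ird1/ird1 against wt was 0.19 (95% interval -0.03 to 0.41, edgeR adjusted p 0.345), and it was 0.14 without wt replicate 2 of that cross (edgeR adjusted p 0.687). With the trend of level on transcript length removed it was 0.07, a move of more than 1.5 times.

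Bcl7b (ENSMUSG00000029681), the BAF subunit, had negative values against wt that rested largely on 1 wt library in each cross. In the gtf2i cross it measured 30.9, 21.3 and 23.3 CPM in wt, 23.1, 22.2 and 23.0 in gtf2i, and 20.3, 21.0 and 24.9 in gtf2i/gtf2i. The difference rested on wt replicate 1, since the other 2 wt libraries lay within the range of the mutants. The log2 fold change in gtf2i/gtf2i was -0.19 (SE 0.151, edgeR adjusted p 0.639), and it was -0.02 without wt replicate 1. For gtf2i against wt that library took the value from -0.15 to 0.02. The ird1 cross had Bcl7b at 28.8, 36.5 and 27.6 CPM in wt, 27.4, 29.7 and 28.0 in ird1 and 28.0, 26.7 and 24.5 in ird1/ird1. The highest value was again in 1 wt library, replicate 2, and the log2 fold change in ird1/ird1 went from -0.22 (SE 0.133, edgeR adjusted p 0.377) to -0.10 without it and to -0.11 with the length trend removed. In ird1 the value went from -0.10 to 0.01 without that library.

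The mitochondrial genes had the fewest reads per library, by CPM not divided by length. Dnajc30 (ENSMUSG00000061118), the J-domain protein, measured 12.2, 11.3 and 7.46 CPM in wt of the gtf2i cross, 7.77, 7.53 and 10.6 in gtf2i and 11.9, 12.0 and 10.4 in gtf2i/gtf2i. The mean was 10.3 ± 2.51 CPM in wt, 8.64 ± 1.72 in gtf2i and 11.4 ± 0.902 in gtf2i/gtf2i, with overlap in both comparisons, and its log2 fold change in gtf2i/gtf2i against wt, 0.15 (SE 0.206, adjusted p 0.826 by edgeR), was -0.05 without wt replicate 3. Between those mutant groups the log2 fold change was 0.38 (95% interval -0.07 to 0.83, p 0.0948, edgeR adjusted p 0.407), the largest of the 48. Without gtf2i replicate 3 it was 0.57 (edgeR adjusted p 0.386). Libraries of the ird1 cross had Dnajc30 at 11.3, 12.8 and 14.7 CPM in wt, 11.9, 10.6 and 11.3 in ird1 and 9.56, 10.9 and 9.51 in ird1/ird1. Every ird1/ird1 library was below every wt library, which gave a log2 fold change of -0.37 (SE 0.162, 95% interval -0.72 to -0.03). Its p was 0.0363 before and 0.301 after adjustment (edgeR). It was -0.37 without wt replicate 2 (p 0.0524, edgeR adjusted p 0.653), -0.25 without wt replicate 3, and -0.26 with the length trend removed (edgeR adjusted p 0.459).

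Dnajc30 also had the widest gap between crosses. The gtf2i/gtf2i effect minus the ird1/ird1 effect was 0.52 on the log2 scale (SE 0.259, p 0.0591, edgeR adjusted p 0.396), and leaving out replicate 3 of the gtf2i-cross wt made it 0.32. That test of the difference called 0 of the 8 genes, where it called 0.171% of all genes, and at an unadjusted p under 0.05 it passed 0 of 8, against 13% of all genes. The other 7 differences lay between -0.05 (Baz1b) and 0.23 (Bud23). Leaving out 1 library took them from -0.16 (Abhd11 without gtf2i/gtf2i replicate 1) to 0.34 (Bud23 without wt replicate 1 of the ird1 cross), and with the length trend removed Baz1b was at 0.09, Bud23 at 0.11, Abhd11 at -0.11, Bcl7b at -0.07 and Tbl2 at 0.31.

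Abhd11 (ENSMUSG00000040532), the hydrolase, measured 13.3, 10.4 and 13.7 CPM in wt of the gtf2i cross, 10.9, 10.2 and 14.7 in gtf2i and 14.1, 11.8 and 8.85 in gtf2i/gtf2i. The gtf2i/gtf2i libraries again spread past wt on both sides, and the log2 fold change was -0.13 (95% interval -0.57 to 0.31, edgeR adjusted p 0.846). Leaving out gtf2i/gtf2i replicate 3 gave 0.05, and leaving out its replicate 1 gave -0.31. Abhd11 was steadier in the ird1 cross, at 15.2, 16.5 and 15.1 CPM in wt, 15.1, 15.0 and 15.7 in ird1 and 14.0, 15.5 and 12.1 in ird1/ird1, and the log2 fold change in ird1/ird1 was -0.16 (SE 0.146, adjusted p 0.542 by edgeR), -0.03 with the length trend removed and -0.08 without ird1/ird1 replicate 3.

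Tbl2 (ENSMUSG00000005374), the protein of the endoplasmic reticulum, had close group means with a wide spread inside some groups. Its group means were 49.9 ± 5.83, 54.8 ± 5.45 and 54.3 ± 9.30 CPM in wt, gtf2i and gtf2i/gtf2i, and 55.5 ± 6.18, 53.1 ± 4.56 and 54.2 ± 0.704 CPM in wt, ird1 and ird1/ird1 (SD, n = 3 each). The spread over group means was 3.69% of their mean, lower than in all but 4.86% of genes. Single libraries ran from 43.3 CPM (wt replicate 2, gtf2i cross) to 62.4 CPM (gtf2i/gtf2i replicate 2), and the log2 fold changes against wt were 0.10 in gtf2i/gtf2i and -0.06 in ird1/ird1 (edgeR adjusted p 0.817 and 0.796). The first was -0.00 without gtf2i/gtf2i replicate 2 and 0.24 without replicate 3, and the second was -0.19 with the length trend removed, -0.13 without wt replicate 2 and 0.00 without wt replicate 1.

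Some genes next to or between these 8 on the chromosome had larger negative values than most of the 8 genes in gtf2i/gtf2i, in ird1/ird1 or in both. Clip2, a microtubule linker protein next to Rfc2, had a log2 fold change of -0.30 in gtf2i/gtf2i against wt (SE 0.0806, edgeR adjusted p 0.0838) and of -0.37 against gtf2i (edgeR adjusted p 0.0266). Stx1a, a synaptic fusion protein between Abhd11 and Bud23, was at -0.44 against wt (SE 0.112, edgeR adjusted p 0.0725), while Abhd11 was at -0.13 and Bud23 at 0.09. Fzd9, a Wnt receptor 2806 bases beyond Baz1b, was at -0.51 (SE 0.158, edgeR adjusted p 0.131) beside 0.15 for Baz1b. Limk1, an actin-regulating kinase next to Eif4h, was at -0.16, Vps37d, an endosomal sorting subunit, at -0.24, and Eln, the gene of elastin, at -0.06 (edgeR adjusted p from 0.362 to 0.946). In ird1/ird1 against wt Eln was at -0.63 (SE 0.176, edgeR adjusted p 0.296), Clip2 at -0.36, Vps37d at -0.30, Limk1 and Stx1a at -0.21 each and Fzd9 at -0.13, and none of these was called. Of 17 other region genes in the table, the called ones in gtf2i/gtf2i against wt were Gtf2i, Gtf2ird1 and Galnt17, a glycosyltransferase (-0.83, edgeR adjusted p 0.0287). The comparison with gtf2i added Clip2 and the calcium-binding protein gene Caln1 (-1.05, edgeR adjusted p 0.0308), and in ird1/ird1 against wt Gtf2ird1 alone was called.

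**Figure D4:**
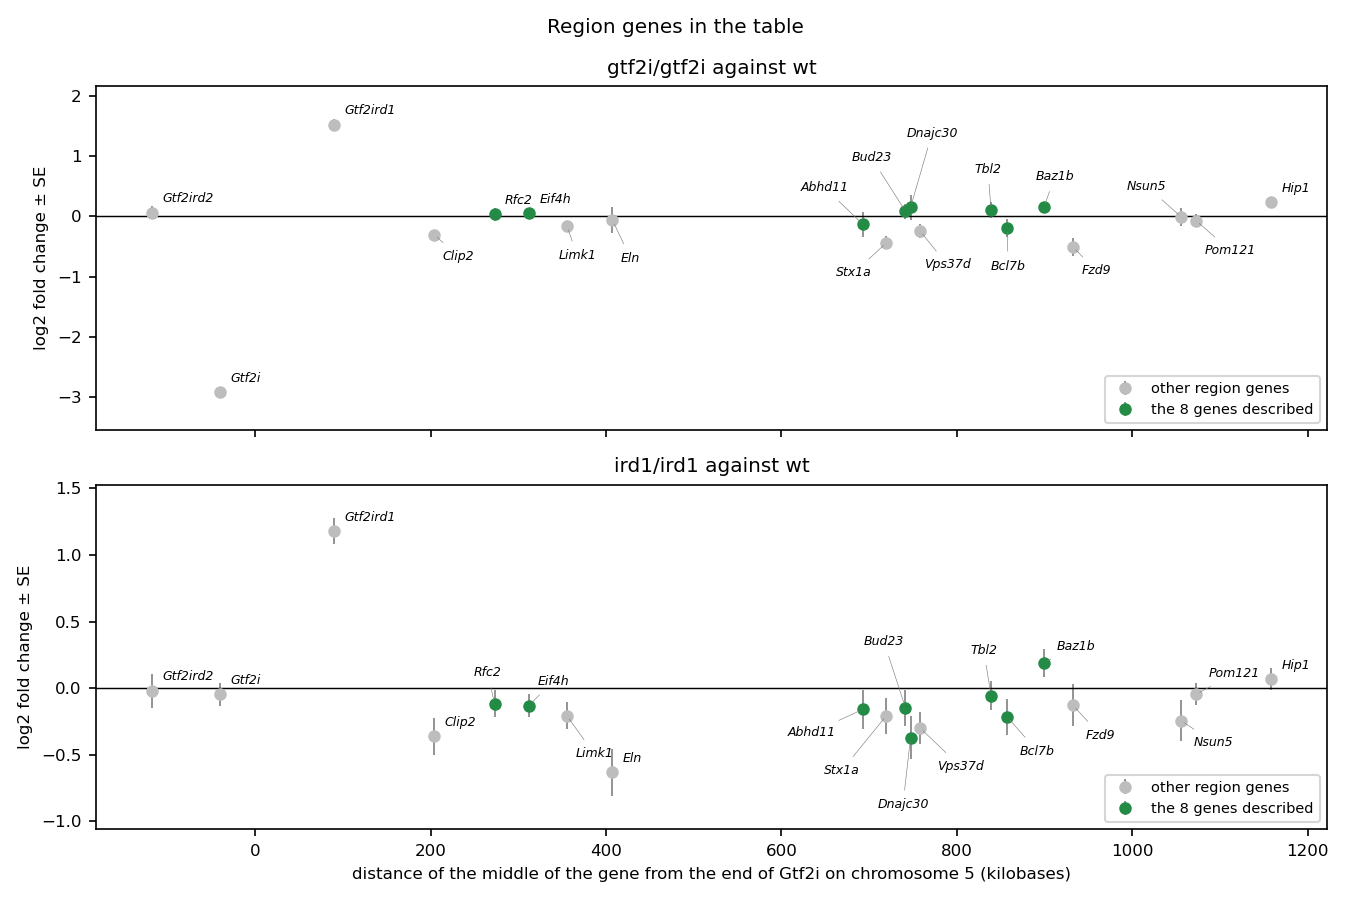
edgeR log2 fold change with its SE (y axis) of the 8 genes (green) and those 12 of the 17 other region genes that lie in the span drawn (grey) by the distance of the middle of each gene from the end of Gtf2i in kilobases (x axis), for gtf2i/gtf2i against wt above and ird1/ird1 against wt below. The 8 genes lie between -0.19 and 0.15 above and between -0.37 and 0.19 below, while Gtf2ird1 stands at 1.52 and 1.18.

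The partners of these proteins were followed in the same comparisons. Called genes numbered 0 in each of the 6 genotype comparisons among 10 clamp loader genes, 11 cap-binding and helicase factors, 9 Trmt112-linked and ribosomal RNA modification genes and 8 genes of 2-oxoglutarate dehydrogenase and lipoylation. The same held for 8 mitochondrial J-protein and Hsp70 genes, 12 ISWI genes, 25 BAF genes, 7 genes of the PERK branch and the 15 reference genes. In gtf2i/gtf2i against wt the ISWI list had the highest median log2 fold change of these, 0.15 (0.00 over all genes). The same list was at 0.15 in ird1/ird1 against wt and 0.18 between the wt groups. It holds Smarca5, the ATPase that pairs with Baz1b, at 66.9 ± 10.7 CPM in wt and 87.9 ± 5.13 CPM in gtf2i/gtf2i. Its log2 fold change was 0.39 (SE 0.118, unadjusted p 0.00522, edgeR adjusted p 0.123). The clamp loader list had a median of 0.14, with Rfc5, another subunit of the complex of Rfc2, at 0.38 (SE 0.133, edgeR adjusted p 0.187). The smallest p among BAF genes was that of Actl6b, a neuronal actin-like subunit, at -0.34 (SE 0.0971, edgeR adjusted p 0.0971). Eif4b, the helicase cofactor that works beside Eif4h, was at 0.24 (edgeR adjusted p 0.179), and Pdha1, a pyruvate dehydrogenase subunit, at 0.28 (edgeR adjusted p 0.121). Trmt11, Hspa9 and Ppp1r15b were at 0.26, 0.15 and 0.14 in the lists of Bud23, Dnajc30 and Tbl2 (edgeR adjusted p from 0.50 to 0.59), and the reference gene Polr2a was at 0.18 (edgeR adjusted p 0.295).

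The wt groups of both crosses, which carry no mutant allele by their labels, differed more, in the median, than any genotype from another, in these genes and in the whole table. The median size of the log2 fold change, sign left aside, was 0.25 over the 8 genes (0.21 over all genes), against 0.06 to 0.15 in the 6 genotype comparisons (0.07 to 0.16 over all genes). Baz1b was at 314 ± 30.8 CPM in wt of the gtf2i cross and 260.0 ± 17.5 CPM in wt of the ird1 cross, and Eif4h at 402 ± 29.6 and 475 ± 25.9 CPM (SD, n = 3 each). No library overlapped between the groups for Baz1b (log2 fold change 0.27, SE 0.104, edgeR adjusted p 0.0928), for Eif4h (-0.24, SE 0.0789, edgeR adjusted p 0.0719) or for Abhd11 (-0.30, SE 0.176, edgeR adjusted p 0.229). Those 3 of 8 stand beside 32% of all genes without overlap. edgeR called 0 of 8 here (0% of all genes) and passed 2 of 8, Baz1b and Eif4h, at an unadjusted p under 0.05, against 32.7% of all genes. DESeq2, which gave Dnajc30 no adjusted p here, called 1, Eif4h (adjusted p 0.0313), and 11.6% of all genes. With replicate 1 of the gtf2i-cross wt left out edgeR called 3 of 8 and 17.7% of all genes, the 3 being Eif4h at -0.30 (adjusted p 0.0297), Baz1b at 0.34 (adjusted p 0.0435) and Bcl7b at -0.44 (adjusted p 0.0362). With all libraries in, the other 5 genes had log2 values of -0.16 (Rfc2) to -0.34 (Dnajc30), lower in wt of the gtf2i cross. Dnajc30 was at -0.13 without replicate 3 of that wt group, and Tbl2, at -0.16 with all libraries, was at -0.07 without its replicate 2. The labels give no date or run, so the crosses and whatever else separated these libraries cannot be told apart.

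Baz1b moved against the other genes from library to library. Over the 18 libraries the correlation of log2 CPM between Baz1b and each of the other 7 was negative, from -0.26 with Tbl2 to -0.80 with Bcl7b. Among the remaining genes the values mostly rose and fell together, with the highest r, 0.81, between Rfc2 and Eif4h. Of all 28 pairs 20 had an r above 0, with a median of 0.44. With each group's mean taken out, the median over the 28 pairs was 0.20, Rfc2 and Eif4h stood at 0.78, and the r of Baz1b with the others at -0.07 (Dnajc30) to -0.66 (Bud23). The libraries share the cross, the depth and the trend of level with transcript length, so these r are descriptions of 18 libraries with no test.

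That length trend moved with the 8 genes. It was measured as the slope, in each library, of log2 CPM relative to the gene's mean on log2 transcript length. The slope ran from -0.17 to -0.03 in wt of the ird1 cross, with -0.17 in replicate 2, and from -0.03 to 0.09 in wt of the gtf2i cross. Within gtf2i/gtf2i it was -0.03 in replicates 1 and 2 and 0.12 in replicate 3, the library with the highest Baz1b and Bcl7b and the lowest values of the other 6 genes in its group. Within ird1 it was -0.02 and -0.01 in replicates 1 and 3 and -0.10 in replicate 2, the library with the lowest Baz1b of the 18. Over the 18 libraries the slope had an r of 0.76 with Baz1b, which has a long transcript (6492 bases). It had an r of -0.87 with Eif4h (2726 bases), -0.86 with Rfc2 (4995 bases) and -0.77 with Bud23 (1607 bases). The weakest r, -0.31, was with Tbl2, whose transcript is the longest of the 8 (7488 bases). With the trend removed, the difference between the wt groups was 0.11 for Baz1b and -0.18 for Eif4h, and neither was called (edgeR adjusted p 0.415 and 0.127). Bud23 went from -0.22 to -0.07, Abhd11 from -0.30 to -0.14, Bcl7b from -0.28 to -0.14 and Dnajc30 from -0.34 to -0.19. Tbl2 and Rfc2 moved away from 0, Tbl2 from -0.16 to -0.35 (edgeR adjusted p 0.138) and Rfc2 from -0.16 to -0.25 (edgeR adjusted p 0.177).

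**Figure D5:**
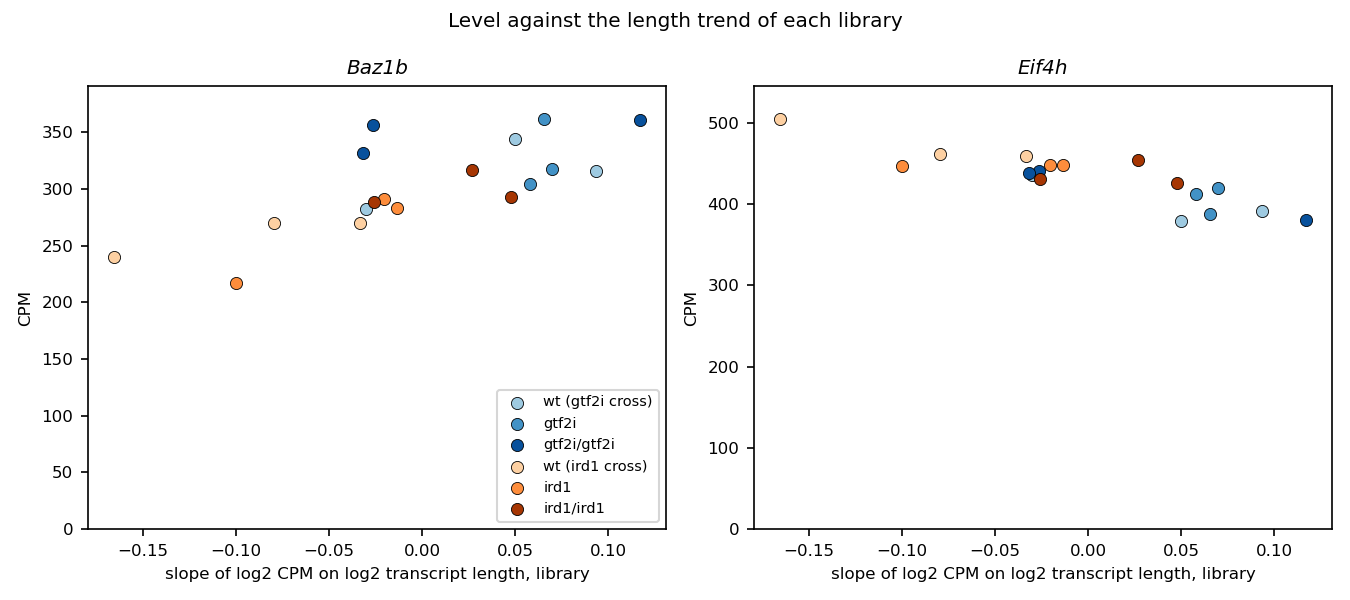
CPM of Baz1b (left) and Eif4h (right) in each of the 18 libraries (y axis, from 0) against the slope of log2 CPM on log2 transcript length in that library (x axis), coloured by group. Baz1b is higher and Eif4h lower toward the right, with r of 0.76 and -0.87 on the log2 scale, and wt replicate 2 of the ird1 cross lies farthest left at -0.17.

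For each gene the most similar profiles over the 18 libraries were found by Pearson's r of log2 CPM among all genes. Rfc2 was most like Mta1, a subunit of a chromatin deacetylase complex (r 0.95), and the nuclear pore gene Nup210 (0.91). Baz1b was most like Hnrnpu, a nuclear RNA-binding protein, and the cohesin regulator Pds5a (0.97 each), Eif4h like the mitochondrial transporter Abcb8 (0.95) and the ribosomal protein gene Rpl8 (0.94), and Bud23 like the cap-binding protein Eif4e2 (0.89) and the splicing factor Bcas2 (0.88). Bcl7b was most like Mvb12b and Grik5 (0.91 each), Abhd11 like the transcription factor Usf1 (0.88) and the amino acid transporter Slc7a5 (0.87), and Dnajc30 like the clamp loader gene Rfc3 (0.84). Tbl2 had the loosest match, fumarase Fh1 (0.76) and Slc7a7 (0.75). By Spearman's rho the first place stayed with Mta1 for Rfc2 and Eif4e2 for Bud23 and went to another gene for the other 6. With each group's mean taken out Mta1 alone stayed first, Eif4e2 took place 4 for Bud23, Rfc3 place 28 for Dnajc30 and Fh1 place 74 for Tbl2.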

How the data were processed

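The values deposited for the 18 RNA libraries were read counts, whole numbers for each gene, from whole embryonic brain, per the labels. The submitters' processing notes name Trimmomatic, STAR, HTSeq and mm10. Versions, annotation and strand setting are not given in the sources used here. Libraries were made from rRNA-depleted RNA with the NEBNext Ultra II kit, per the labels' protocols. The smallest value in each library was 2.90 to 3.09 CPM, so genes low in any library are not analysed here. The 32 chromatin and input samples were not analysed here. Counts were scaled by TMM and tested with edgeR 4.0.16 (R 4.3.3) using the quasi-likelihood test, within each cross (6 residual degrees of freedom) or over 18 libraries for contrasts between crosses. filterByExpr removed 0 genes. SE was the log2 fold change divided by the root of F, and intervals are 95%. All 18 replicate pairs differed by more than sampling (chi-square over its degrees of freedom 2.90 to 29.5), and counting errors cover counting only. Of 11708 identifiers, 11704 were found in the name table, all 8 genes among them.

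The 8 genes, the gene lists and the naming rule were set with earlier results of these data known. The rule named the 8 genes, both mutated genes, called genes of each list or otherwise its gene with the smallest p in gtf2i/gtf2i against wt, neighbours on the chromosome and the 2 genes most alike. One gene that the rule named is not reported here. The number opening each sample title was used as a pairing only in the alternative with a block. The fold changes above are unpaired unless the block is named. For gtf2i/gtf2i against wt, deviations from the group means correlated at 0.373, 0.104 and 0.514 between libraries that share the number. The labels do not say what the number means. Alternatives were RLE and upper-quartile scaling, DESeq2 1.42.0, filters, other sets of libraries in the fit, the block, removal of the length trend and leaving out each library. The statistics were tested on simulated data.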

Additional observations from a re-analysis of the deposited data

How the results depend on the processing

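In the genotype comparisons 0 of 768 values of the 8 genes under alternatives were called (smallest adjusted p 0.122, Baz1b in gtf2i/gtf2i against wt with the title number as a block and the length trend removed), 724 kept their sign, and the largest move was 0.20 on the log2 scale. The number of the 8 genes called between the wt groups was 0, but 1 with DESeq2 (11.6% of all genes) and 0 to 3 when a library was left out (up to 17.7%). DESeq2 gave no adjusted p to Dnajc30 there, nor to 6 of the 8 genes in ird1/ird1 against wt, all but Eif4h and Baz1b. Those 6 count as not called among the 768 values. The fit with no filter, also among them, equalled the main fit, since filterByExpr removed 0 genes. By CPM not divided by length Rfc2 took place 3, Tbl2 4, Bud23 5, Bcl7b 6 and Abhd11 7.

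The count over all genes moved more, and the causes were not tested. In gtf2i/gtf2i against wt (110) it was 310 with DESeq2, 31 from a fit of just the compared groups, 262 from a fit of all 18 libraries, 293 with the length trend removed, 624 with the replicate block, 845 with both, and 28 (without wt replicate 3) to 1159 (without gtf2i/gtf2i replicate 3) leaving out a library. In gtf2i against wt (1) it was 6 with DESeq2, 5 from the compared groups, 3 from all 18 libraries, 2 with the block and 5 with block and trend. In gtf2i/gtf2i against gtf2i (365) the block gave 892, the block with trend 1097, and leaving out a library 67 to 1376. In ird1/ird1 against wt (1) DESeq2 gave 3. In ird1 against wt (0) DESeq2 and all 18 libraries gave 1 each, and leaving out a library 0 to 1. In ird1/ird1 against ird1 (0) DESeq2, the fit of just the compared groups and that of all 18 gave 1 each. In the difference of effects (20) DESeq2 gave 84, the block 83, block with trend 77, the trend 33, and leaving out a library 12 to 723. Between the wt groups (0) DESeq2 gave 1354 and leaving out a library 0 to 2076. The unadjusted counts also moved when a library was left out, to 1135 to 2722 in gtf2i/gtf2i against wt (1684), 142 to 249 in gtf2i against wt (187), 1309 to 2981 in gtf2i/gtf2i against gtf2i (1935), 877 to 2507 in ird1/ird1 against wt (1886), 214 to 694 in ird1 against wt (353), 183 to 784 in ird1/ird1 against ird1 (546), 918 to 2869 in the difference of effects (1517) and 1864 to 4500 between the wt groups (3827). The block changed no call of the 8 genes. The same check of the title numbers gave 0.275, 0.349 and 0.0483 in gtf2i against wt, and 0.0613, 0.115 and 0.0568 in gtf2i/gtf2i against gtf2i. In the ird1 cross it gave values of both signs, from -0.295 to 0.281. Depth limits Dnajc30 and Abhd11 most, at 39 to 117 reads a library.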
